A study of Mus musculus with 6 samples.

Results

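The interleukin-1 (IL-1) family and its decoys are taken here as 8 genes, found by their symbol in the deposited table of expression values: the ligands Il1a, Il1b and Il18, the secreted antagonists Il1rn and Il18bp, and the receptor chains Il1r1, Il1r2 and Il1rap. All 8 were present among the 25124 genes of that table. The source of RNA was RAW264.7, a line of mouse macrophages, which carried a plasmid for the nuclease Cas9 with no guide RNA as the control line of an E4BP4 knockout. The 3 M1 samples had received LPS at 100 ng/ml and IFN-γ at 50 ng/ml, and the 3 M0 samples neither. Both groups grew in medium with 25 mM glucose. How long the agents were left on is not stated in the labels. No label calls the replicates separate cultures, so a p-value here sets a difference against the spread of these samples, possibly a technical one.

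IL-1α and IL-1β act through the receptor IL-1R1, which needs the accessory chain IL-1RAP to signal by way of MyD88 and the IRAK kinases. IL-1 receptor antagonist (Il1rn) occupies IL-1R1 without signalling, IL-1R2 binds IL-1 but lacks the intracellular signalling domain and so acts as a decoy, and IL-18 binding protein (Il18bp) captures IL-18 in solution. In macrophages IL-1β and IL-18 are made as precursors that inflammasome-activated caspase-1 cuts, so mRNA levels do not give the amount of active cytokine.

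Reads in genes numbered from 15615639 to 20283180 in a library. Of 10 macrophage markers all 10 were expressed highly enough to be tested, with a summed level of 3010 to 3237 TPM in M0 and 2783 to 2824 TPM in M1 (TPM scales reads by transcript length and by library). Single markers differed: by the limma calls described below, 5 were higher and 4 lower in M1, beside 18.7% and 61.5% of all genes tested. After the median-of-ratios rescaling described below, 6 were higher and 2 lower, beside 38.1% and 35.4%. Adgre1 (F4/80) went from 2.73 ± 0.505 to 67.6 ± 1.13 TPM and Lyz2 from 1069 ± 78.3 to 683 ± 25.5 TPM. Of 20 markers of other cell types 19 stayed below 1 TPM in every library, and 7, among them Cd3g and Krt18, were at 0 in all of them; the exception was S100a8, a neutrophil and monocyte gene, with 5.29 ± 0.753 TPM (M0) and 3.39 ± 0.453 TPM (M1) (mean ± SD, n = 3 here and below).

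The 4 members with the largest differences between the groups were Il1b, Il1a, Il1rn and Il18bp, and the 300 bases around their start sites (250 before, 50 after; RefSeq, GRCm38.p6) are given because these genes rose together. Capitals mark matches to any of 6 motifs, searched on both strands and chosen with the expression results known.
Il1b (chr2:129371090-129371389, minus strand): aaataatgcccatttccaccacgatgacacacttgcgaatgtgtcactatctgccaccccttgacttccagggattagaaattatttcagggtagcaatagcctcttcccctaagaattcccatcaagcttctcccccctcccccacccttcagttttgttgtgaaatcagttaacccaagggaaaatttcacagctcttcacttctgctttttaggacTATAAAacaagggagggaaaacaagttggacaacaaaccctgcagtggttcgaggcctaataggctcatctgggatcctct
Il1a (chr2:129309923-129310222, minus strand): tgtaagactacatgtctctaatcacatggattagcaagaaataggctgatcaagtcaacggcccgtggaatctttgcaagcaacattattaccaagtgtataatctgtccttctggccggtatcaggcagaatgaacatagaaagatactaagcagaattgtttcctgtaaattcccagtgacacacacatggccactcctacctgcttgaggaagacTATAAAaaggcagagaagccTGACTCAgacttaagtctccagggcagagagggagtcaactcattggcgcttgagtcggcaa
Il1rn (chr2:24345121-24345420, plus strand): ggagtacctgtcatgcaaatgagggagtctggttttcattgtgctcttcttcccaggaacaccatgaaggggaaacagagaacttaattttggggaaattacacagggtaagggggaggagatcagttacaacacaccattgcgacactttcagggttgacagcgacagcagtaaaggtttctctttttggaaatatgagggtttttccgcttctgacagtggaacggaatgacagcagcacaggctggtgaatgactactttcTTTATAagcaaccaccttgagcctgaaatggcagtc
Il18bp (chr7:102018183-102018482, minus strand): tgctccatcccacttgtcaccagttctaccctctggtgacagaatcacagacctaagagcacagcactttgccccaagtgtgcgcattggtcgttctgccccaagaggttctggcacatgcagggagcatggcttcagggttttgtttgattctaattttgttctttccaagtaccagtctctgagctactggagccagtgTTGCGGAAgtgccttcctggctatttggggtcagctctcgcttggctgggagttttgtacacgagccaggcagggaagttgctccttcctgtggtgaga
The motifs were the TATA box (TATAAA), AP-1 (TGANTCA), C/EBP (TTGCNNAA), the gamma-activated site (TTCNNNGAA), the core of the interferon-stimulated response element (GAAA, 2 free bases and GAAA again) and the NF-κB consensus. No matches to different motifs overlapped in these windows.

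In Il1b and Il1a a TATA box lay 31 and 32 bases before the first transcribed base. The Il1a window also held an AP-1 match 12 bases before it, and the Il18bp window a C/EBP match 49 bases before it. In Il1rn the TATA letters lay on the opposite strand, 14 bases after the start. Of the 7 members whose promoter entry began at the start site of the deposited transcript (Il1r2 did not), 4 held the TATA letters, 2 C/EBP, 1 AP-1 and 1 the interferon core, and none the NF-κB consensus or the gamma-activated site. Among all 32851 promoter windows of this length, such other windows included, 13.6% held the TATA letters on either strand and at any position. The shares were 10.8% for C/EBP, 8.3% for the gamma-activated site, 7.81% for AP-1, 4.51% for the NF-κB consensus and 3.44% for the interferon core. A match describes letters in the window and is not evidence of binding.

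Setting M1 against M0 shows how these genes stood after LPS and IFN-γ. The ligands and the soluble antagonists were higher in M1, the decoy receptor Il1r2 was lower, and Il1r1 was near 0 in both groups. Of the 7 members expressed highly enough for a test (at least 1 TPM in at least 3 samples), 6 were higher and 1 was lower (limma on log2(TPM + 1); a call is an adjusted p under 0.05 by Benjamini-Hochberg over all 11297 genes tested). Calls were common: 18.7% of all genes tested were higher and 61.5% lower, 80.2% in either direction. Il1a and Il1b passed the filter through their M1 samples alone, so those had to differ, and the count of members is a description. The median log2 change was 3.69 over the 7 members and -0.31 over all genes tested. Rescaling TPM by median-of-ratios factors moved the latter to 0.02. The members were again 6 higher and 1 lower, beside 38.1% of all genes higher, 35.4% lower and 73.5% in either direction. Limma-voom on recovered reads with total-read scaling gave 6 and 1 too, beside 18.5% higher, 63.8% lower and 82.3% in either direction. With median-of-ratios factors limma-voom gave 6 and 1 beside 38.6%, 35.6% and 74.2%, and limma on the log2 values of the authors' deposited table likewise 6 and 1 beside 38.5%, 35.9% and 74.4%. In these bulk samples a change in the share of expressing cells and a change in RNA per cell cannot be told apart.

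**Figure D1:**
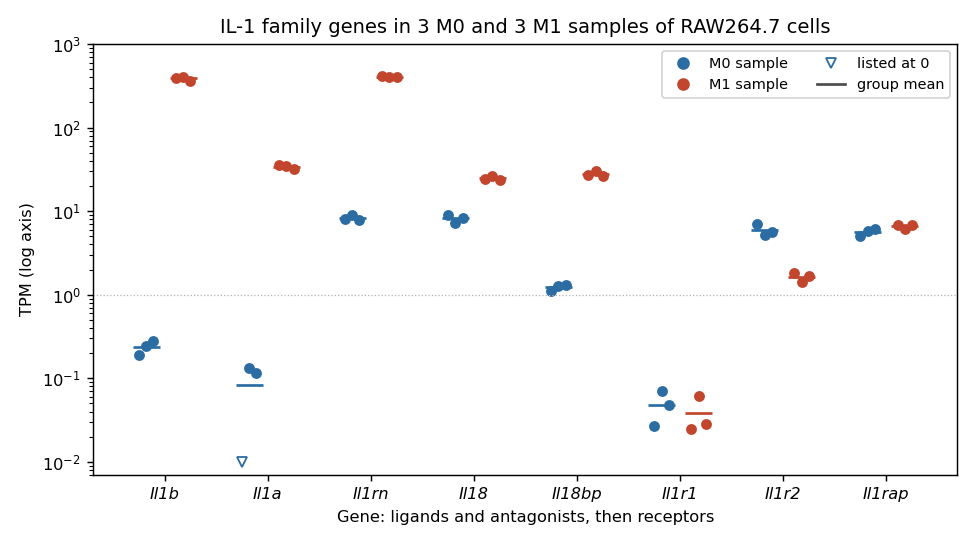
TPM (log axis) of the 8 genes in each M0 sample (blue) and M1 sample (red), with group means as bars and the value listed at 0 drawn as an open triangle at the lower edge. The dotted line marks 1 TPM; Il1b and Il1a lie below it in M0 and above 30 TPM in M1, and Il1r1 lies below it in all 6 samples.

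Il1b encodes IL-1β (NM_008361, mm10 chromosome 2, 129364578 to 129371139, minus strand, protein-coding, 7 exons). It was at 0.19, 0.246 and 0.282 TPM in the M0 samples and at 391, 405 and 366 TPM in the M1 samples. Every M1 sample lay far above every M0 sample, and M0 rested on 14 reads over 3 libraries against 25596 in M1. The ratio of mean TPM was 1617. From the reads it was 1638 with an exact 95% counting interval of 976 to 2996. The fitted log2 change was 8.29 (SE 0.06, limma adjusted p = 5.26e-16). Il1b passed the filter through its M1 samples alone, so it had to differ and this p-value is a description.

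Il1a, the gene of IL-1α, which is active without caspase-1 and is also found in the nucleus, lies next to it (NM_010554, chromosome 2, 129299610 to 129309972, minus strand, 7 exons). Il1a was listed at 0, 0.134 and 0.115 TPM in M0 and at 35.3, 34.3 and 31.7 TPM in M1. The groups did not overlap, and M0 rested on 7 reads against 3276 in M1. Its log2 change was 5.01 (SE 0.08, limma adjusted p = 3.22e-13), and the read ratio of 419 had a counting interval of 203 to 1044. Il1a, like Il1b, passed the filter through its M1 samples alone, so its p-value is a description too. With a pseudocount of 0.1 in place of 1 TPM its log2 change was 7.63, and under limma-voom on reads it was 8.94. In M1 the level of Il1b was 11.1, 11.8 and 11.6 times that of Il1a in samples 1 to 3, so IL-1β mRNA was the more abundant of the pair in each. The interval of a ratio covers counting error only.

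Il1rn (NM_001039701, chromosome 2, 24345371 to 24351491, plus strand, 4 exons), the receptor antagonist, had a basal level that the IL-1 ligands lacked. It was at 8.11, 9.07 and 7.75 TPM in M0 and at 416, 401 and 407 TPM in M1. That is a 49.1-fold increase with no overlap between the groups (log2 change 5.46, SE 0.06, limma adjusted p = 9.75e-15). The table has a single row for Il1rn, so its secreted and intracellular isoforms, which start at different sites, were not separated.

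Il18 (NM_001357221, chromosome 9, 50554700 to 50581841, plus strand) encodes IL-18, an inducer of IFN-γ in lymphocytes. It was at 9.04, 7.31 and 8.29 TPM in M0 and 24.0, 26.3 and 23.6 TPM in M1. Il18 was thus expressed before stimulation and rose 3.0-fold (log2 change 1.48, SE 0.08, limma adjusted p = 1.02e-08). Its inhibitor Il18bp (NM_001363982, chromosome 7, 102015074 to 102018232, minus strand), a gene known to respond to IFN-γ, was at 1.10, 1.28 and 1.31 TPM in M0 and at 26.9, 30.1 and 26.1 TPM in M1. Il18bp rose 22.6-fold (log2 change 3.69, SE 0.08, limma adjusted p = 3.14e-12), and its groups did not overlap. The fitted 95% intervals of the log2 changes, 1.31 to 1.65 for Il18 and 3.52 to 3.86 for Il18bp, were apart.

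**Figure D2:**
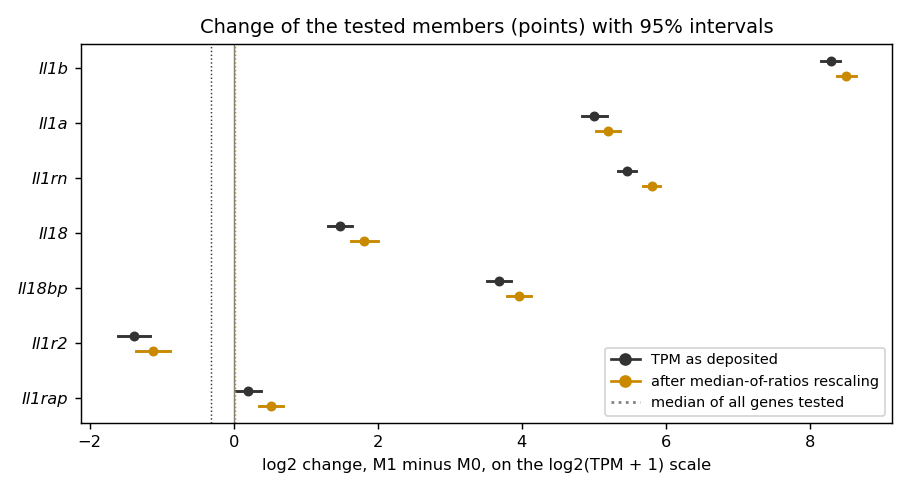
Fitted log2 change, M1 minus M0, of the 7 tested members (points) with 95% intervals, from TPM as deposited (black) and after median-of-ratios rescaling (orange); dotted lines mark the medians of all genes tested, -0.31 and 0.02. Rescaling moved every member to the right and left Il1r2 as the member below 0, while the interval of Il1rap from deposited TPM comes close to 0.

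Among the receptor chains, Il1r1 (NM_008362, chromosome 1, 40225080 to 40316177, plus strand, 11 exons), the signalling receptor for IL-1, had the lowest mean TPM of the members in both groups, with samples that overlapped those of Il1a in M0. It was at 0.027, 0.07 and 0.048 TPM in M0 and at 0.025, 0.061 and 0.028 TPM in M1. Behind them were 10 reads in M0 (exact 95% Poisson interval 4.80 to 18.4) and 9 in M1 (4.12 to 17.1). Il1r1 was too low to be tested. The ratio of M1 to M0 was 0.806 with a counting interval of 0.290 to 2.21. That interval covers counting error only and includes no difference, so the direction was not resolved at this depth.

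The decoy Il1r2 (NM_010555, chromosome 1, 40084714 to 40125230, plus strand, 9 exons) was at 6.94, 5.22 and 5.59 TPM in M0 and at 1.80, 1.42 and 1.69 TPM in M1. All M1 samples were below all M0 samples, a 3.61-fold fall (log2 change -1.39, SE 0.10, limma adjusted p = 1.84e-07). Of all genes tested, 61.8% had M1 samples entirely below M0 samples and 19.6% entirely above.

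Il1rap (NM_008364, chromosome 16, 26581705 to 26717748, plus strand, 11 exons), the accessory chain that IL-1R1 and the IL-33 and IL-36 receptors share, was nearly level on deposited TPM. It was at 4.98, 5.84 and 6.04 TPM in M0 and at 6.75, 6.15 and 6.90 TPM in M1. The lowest M1 sample exceeded the highest M0 sample by a small margin. The log2 change of 0.20 (SE 0.08, limma adjusted p = 0.0389) lost its call without M0 replicate 1 (0.13, adjusted p = 0.157), without M1 replicate 1 (0.19, adjusted p = 0.0975) and without M1 replicate 3 (0.17, adjusted p = 0.0935). Over all alternatives run its adjusted p ranged from 3.39e-06 to 0.157. Rescaled TPM gave 0.51 (limma adjusted p = 0.00011).

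In M0 the order by mean TPM was Il1rn (8.31), Il18 (8.21), Il1r2 (5.92), Il1rap (5.62), Il18bp (1.23), Il1b (0.239), Il1a (0.083) and Il1r1 (0.0483). The samples of Il1rn and Il18 overlapped, as did those of Il1r2 and Il1rap and those of Il1a and Il1r1. In M1 the order was Il1rn (408), Il1b (387), Il1a (33.8), Il18bp (27.7), Il18 (24.6), Il1rap (6.60), Il1r2 (1.64) and Il1r1 (0.038). There the samples of Il1rn and Il1b overlapped, and so did those of Il18bp and Il18. Il1b thus moved from the sixth place to the second, beside Il1rn.

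Antagonist and agonist were set against each other within each sample, on TPM, which is per transcript length. Il1rn exceeded the sum of Il1a and Il1b by 42.7, 23.9 and 19.5 times in the M0 samples, whereas in M1 the ratio was 0.976, 0.912 and 1.03. M0 ratios had few ligand reads under them (4, 9 and 8). The geometric mean ratio was 27.9-fold lower in M1. Il18bp to Il18 went the other way, from 0.121, 0.175 and 0.157 in M0 to 1.12, 1.15 and 1.11 in M1, a 7.52-fold higher ratio. In each M1 sample, therefore, the mRNA of either antagonist was close to that of its ligands on TPM, which uses the length of 1 listed transcript per gene. On reads, not divided by length, the M1 ratios were 1.736, 1.625 and 1.826 for Il1rn and 1.426, 1.456 and 1.405 for Il18bp. Il1r2 to Il1r1 was 257, 74.6 and 116 in M0 and 72.0, 23.3 and 60.5 in M1, so the decoy was the more abundant chain in all 6 samples, with 2 to 5 reads of Il1r1 per library. For all 3 ratios the groups did not overlap, but for Il1r2 to Il1r1 the margin was small (lowest M0 ratio 74.6, highest M1 ratio 72.0). The exact two-sided permutation test gave p = 0.10 for each, also after Benjamini-Hochberg adjustment over the 3, which is the smallest p that 3 samples against 3 allow.

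**Figure D3:**
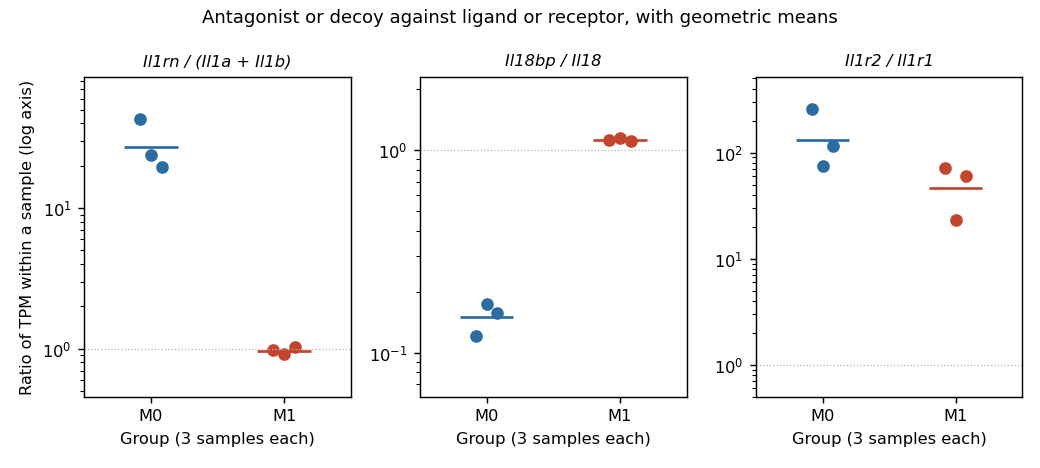
Ratio of TPM within each sample (log axis) for Il1rn against Il1a plus Il1b, Il18bp against Il18 and Il1r2 against Il1r1, with bars at the geometric mean of 3 samples. The first ratio went from 19.5 to 42.7 in M0 to about 1 in M1, the second from under 0.2 to just above 1, and the third remained above 20 in all 6 samples.

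Of the 6 other IL-1 family ligands, 2 were expressed highly enough to be tested and both rose, beside 18.7% of all genes higher (38.1% after rescaling). They were Il1f6 and Il1f9, which encode IL-36α and IL-36γ, agonists best known from epithelium and skin. Il1f6 (NM_019450, chromosome 2, 24215417 to 24225701) was at 0 in the 3 M0 samples and at 9.12, 8.36 and 7.99 TPM in M1. Against a floor of 3 reads over the M0 group that is at least 109-fold higher (limma adjusted p = 1.18e-11). Il1f9 (NM_153511, chromosome 2, 24186476 to 24193567) was likewise at 0 in M0 and at 6.94, 7.16 and 6.46 TPM in M1, at least 165-fold higher (limma adjusted p = 2.04e-11). As with Il1b, both passed the filter through M1 alone. The genes of IL-36β (Il1f8) and of Il1f10 were at 0 in all 6 samples, and the IL-36 receptor antagonist Il1f5 had 2 reads in M1. Il33, an alarmin of the family, was at 0 in M0 and at 0.189, 0.184 and 0.129 TPM in M1, from 21 reads, and was not tested.

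Of the 7 other receptor chains, 3 were expressed highly enough to be tested and all 3 fell, beside 61.5% of all genes; after rescaling 2 did, beside 35.4%. Il1rl1, which encodes the IL-33 receptor ST2, including a soluble decoy form, was at 8.26, 8.65 and 7.88 TPM in M0 and at 1.14, 1.24 and 1.19 TPM in M1 (log2 change -2.08, SE 0.07, limma adjusted p = 3.08e-10). Sigirr, an inhibitory member of the receptor family, was at 8.98, 8.34 and 10.2 TPM in M0 and at 2.67, 2.21 and 2.85 TPM in M1 (log2 change -1.51, SE 0.09, limma adjusted p = 3.90e-08). The table has 1 row for Il1rl1 and does not separate its soluble form. Il18rap, the signalling chain of the IL-18 receptor, averaged 17.5 ± 0.522 TPM (M0) and 13.4 ± 1.81 TPM (M1), called lower on deposited TPM (log2 change -0.37, limma adjusted p = 0.00156) and level after rescaling (-0.03, adjusted p = 0.774). Its ligand-binding partner Il18r1 had 5 reads in M0 and 2 in M1. For both IL-1 and IL-18, then, one chain of the receptor pair was measured in these cells and the ligand-binding one was near 0. The IL-36 receptor chain Il1rl2 was also near 0, with 9 reads in M0 and 4 in M1.

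Signalling components downstream of the receptors, which Toll-like receptors share, were called in both directions. Of 16 genes 14 were tested, 4 rose, 5 fell and 5 were not called, beside 18.7% higher and 61.5% lower among all genes. After rescaling 10 were higher and 3 lower, beside 38.1% and 35.4%. Tollip, an inhibitor of IRAK signalling, was called lower on deposited TPM (log2 change -0.15, limma adjusted p = 0.0494) and higher after rescaling (0.20, adjusted p = 0.00648). The median log2 change was -0.08, and 0.26 after rescaling. The adaptor Myd88 went from 44.4 ± 1.58 to 135 ± 2.7 TPM, a log2 change of 1.58. Peli1, an E3 ubiquitin ligase that acts on IRAK complexes, went from 16.8 ± 0.840 to 111 ± 2.50 TPM. Irak2, a kinase of the family that sustains signalling, went from 25.7 ± 1.66 to 80.2 ± 2.08 TPM, and Irak3, its inhibitory relative, from 7.32 ± 0.109 to 16.6 ± 1.55 TPM. The other IRAK genes fell: Irak4 from 18.1 ± 0.622 to 9.63 ± 0.213 TPM and Irak1 from 24.2 ± 0.293 to 15.6 ± 0.504 TPM. Both were also lower after rescaling, with log2 changes of -0.51 and -0.26. Tab2, the most abundant gene not called, averaged 42.7 ± 2.25 and 41.5 ± 4.72 TPM. Rescaling turned its sign, and it was then called higher (0.31).

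Of 20 genes of inflammasomes and IL-1 processing, sensors and regulators included, 19 were tested, and Mefv (4 reads in M0, 57 in M1) was too low. On deposited TPM 6 rose, 9 fell and 4 were not called, beside 18.7% and 61.5% of all genes, and after rescaling 9 were higher and 7 lower, beside 38.1% and 35.4%, with a median log2 change of -0.11 and 0.16. Casp1, the enzyme that cuts pro-IL-1β and pro-IL-18, went from 90.9, 86.6 and 80.8 TPM in M0 to 346, 336 and 314 TPM in M1 (log2 change 1.94, SE 0.06, limma adjusted p = 5.56e-11). Casp4 (caspase-11 of the mouse), which senses LPS in the cytosol, rose more, from 19.2 ± 1.33 to 300 ± 13.4 TPM. The sensor Nlrp3 rose from 38.2 ± 0.717 to 134 ± 7.91 TPM, and the pore-former Gsdmd from 56.0 ± 0.716 to 80.7 ± 1.83 TPM.

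Pycard encodes ASC, the adaptor between NLRP3 and caspase-1, a protein that RAW264.7 cells have been described as lacking. Its mRNA was at 53.9, 51.2 and 54.8 TPM in M0 and at 37.1, 37.2 and 33.5 TPM in M1, so the transcript was measured in every sample and was lower in M1 (log2 change -0.56, SE 0.06, limma adjusted p = 2.58e-06; -0.20 after rescaling). Protein was not measured. Nek7, an NLRP3 partner, and Txnip fell as well, from 56.4 ± 2.61 to 33.0 ± 0.948 TPM and from 102.5 ± 3.07 to 67.6 ± 0.626 TPM. Aim2, the most abundant gene not called, averaged 53.0 ± 2.16 and 55.8 ± 2.47 TPM. On the rescaled values Aim2 was higher (0.43).

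**Figure D4:**
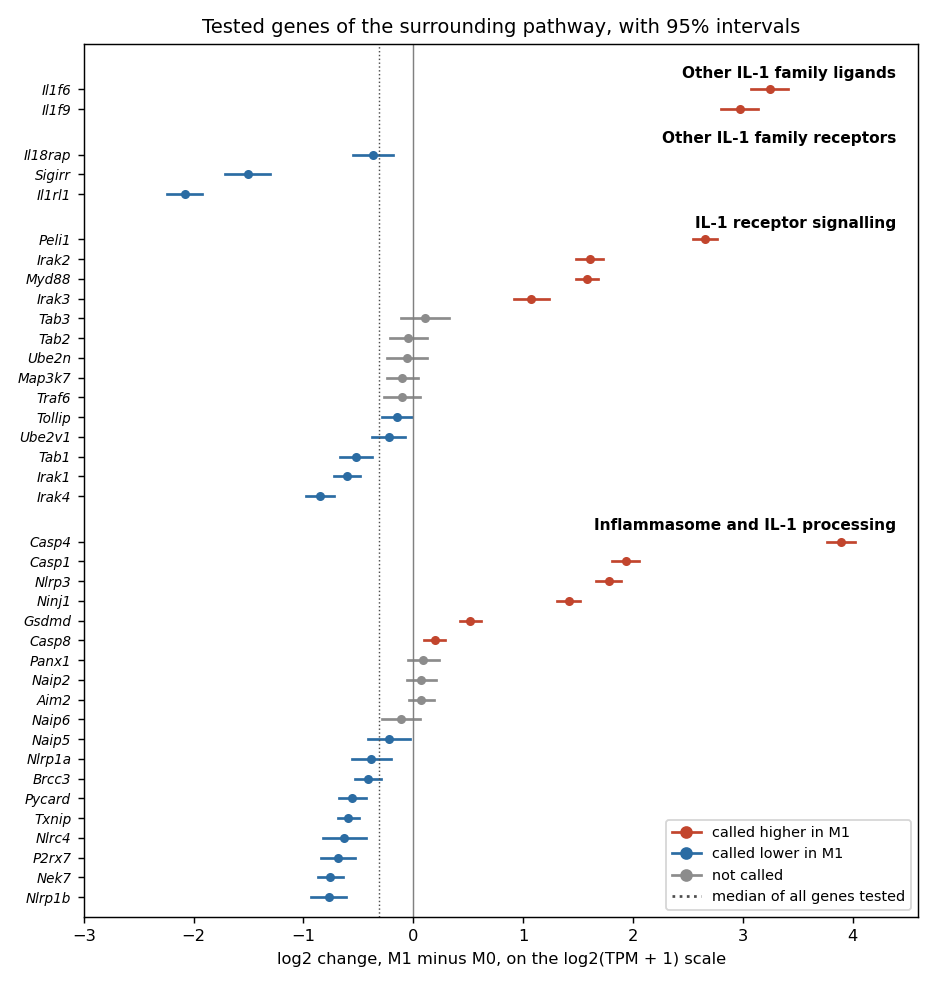
Fitted log2 change, M1 minus M0, with 95% intervals, of the 38 tested genes in 4 lists of the surrounding pathway, coloured by their call on deposited TPM. The other ligands lie right of 0, the other receptors left of it, and both remaining lists spread from Casp4 and Peli1 on the right to Nlrp1b and Irak4 on the left; the dotted line is the median of all genes tested, -0.31.

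Several members share their locus with transcripts of the opposite strand, and whether counting used strand is not stated, so reads of such partners cannot be told apart. Gm14023, a noncoding RNA antisense to Il1a that shares 222 exonic bases with it in GENCODE M21, was at 0, 0.186 and 0.043 TPM in M0 and at 5.37, 6.05 and 4.53 TPM in M1, with 468 reads in M1 against 3276 of Il1a. Il1bos, antisense to Il1b with 25 shared exonic bases, had 3 reads in M0 and 22 in M1, few beside the 25596 of Il1b. Gm16894, within Il1r2 on the opposite strand with no shared exonic base, went the way of Il1r2, with 33 reads in M0 and 1 in M1. Tex12, which overlaps Il18 with no shared exonic base, had 3 reads in M0 and 18 in M1. Gm20319, which shares 552 exonic bases with Il1rap, was at 4.02 ± 1.07 and 4.57 ± 0.708 TPM, from 95 and 122 reads beside 1127 and 1481 of Il1rap. It was not called on deposited TPM and was called higher after rescaling (log2 change 0.46, limma adjusted p = 0.0283). These 5 genes were named after their values were seen.

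Genes whose levels over the 6 samples lay nearest to a member were found by Euclidean distance of log2(TPM + 1), among tested genes outside the 8. Nearest to Il1b were Saa3 (distance 0.50), an acute-phase protein, Nos2 (0.99) and Cxcl9 (1.17). Nearest to Il1a were Il6 (0.28), which went from 0.0417 ± 0.0364 to 37.0 ± 1.69 TPM, Mir155hg (0.41) and F830016B08Rik (0.53). Nearest to Il1rn were the interferon-responsive genes Usp18 (0.62), Ifi47 (0.79) and Igtp (0.84). Nearest to Il18bp were Rnd3 (0.37), Tent5c (0.86) and Kynu (0.90). With 2 groups of samples this measure picks genes of like levels in M0 and M1.

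The authors' deposited table, which lists another transcript for Il18, Il18bp and Il1r1, gave log2 fold changes of 11.0 for Il1b, 9.07 for Il1a, 5.98 for Il1rn, 4.91 for Il18bp, 1.95 for Il18, 0.60 for Il1rap and -1.47 for Il1r2. For Il1r1 the authors' deposited table gave 0.04 with an adjusted p of 0.978. By an adjusted p under 0.05 in the authors' deposited table, members were 6 higher and 1 lower, beside 17.6% and 15.9% of its 24421 genes. That base had no filter on expression, so these shares are not like those given above for the genes tested. The pseudocount of 1 TPM in the limma fit draws in the changes of genes near 0 in M0, such as Il1b and Il1a.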

How the data were processed

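Poly(A)-selected RNA of 6 samples (3 M0, 3 M1) was sequenced, per the labels' protocols. Tools in the submitters' processing notes, with no role given, are STAR 2.7.5a, HOMER 4.11.1, bcl2fastq and DESeq2, and the build is mm10. The authors deposited TPM per gene for 25124 genes, with 1 transcript and its length per symbol, and a second table with log2 values of unstated transform, a log2 fold change, a p-value and an adjusted p-value for 24421 genes, per the file headers. The columns of TPM sum to 551257 to 572349.

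From TPM as deposited, limma 3.58.1 (trend, robust; R 4.3.3) was fitted to log2(TPM + 1) of the 11297 genes that reached 1 TPM in 3 samples or more, with group as the only term, 4 residual degrees of freedom and Benjamini-Hochberg adjustment; under 0.05 was called. Folds are ratios of mean TPM. TPM times length was a whole multiple of 1 value per library (within 0.1) for 99.79% to 99.99% of values above 0, which gave the reads. Read numbers, intervals (95%) and the floor of 3 reads cover counting error only. Counting noise did not account for the differences within any pair of replicates (chi-square divided by its degrees of freedom, 1.55 to 7.90), so none was taken for a repeated library.

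Alternatives were a pseudocount of 0.1, no filter, median-of-ratios rescaling, limma-voom on recovered reads, limma on the log2 values, a replicate block, and leaving out each sample. Same-numbered samples did not deviate together (r = 0.071, -0.076 and 0.037), so the numbers were not taken as pairs. The labels name no batch. The members, lists and motifs were chosen with earlier results of these data known. Named were the members; 15 pathway genes whatever their values; per list up to 2 rising and 2 falling genes with the smallest p and the most abundant gene not called; neighbours within 100 kb at 1 TPM or more; and the 3 nearest genes by distance. Il36a, Il36b, Il36g and Il36rn are listed as Il1f6, Il1f8, Il1f9 and Il1f5 and were matched through RefSeq synonyms (GRCm38.p6). The text does not name every gene the rule takes.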

Additional observations from a re-analysis of the deposited data

How the results depend on the processing

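Il1b, Il1a, Il1rn, Il18bp, Il18 and Il1r2, among the tested members, kept direction and call in all 13 alternatives. Their log2 changes ranged from 8.26 to 10.9 for Il1b, 4.95 to 9.33 for Il1a, 5.42 to 5.98 for Il1rn, 3.63 to 4.84 for Il18bp, 1.41 to 1.95 for Il18 and -1.86 to -1.08 for Il1r2, with the upper ends for Il1a and Il1b under limma-voom, which has no pseudocount of 1 TPM. Il1rap was not called without a filter, where more genes are tested (0.20, adjusted p = 0.072), and ran from 0.13 to 0.25 when single samples were left out. It was 0.51 with median-of-ratios scaling, 0.60 under limma-voom with such factors and 0.56 on the log2 values of the authors' deposited table, called higher in each. The untested Il1r1 moved from -0.01 to -0.10 with a pseudocount of 0.1 TPM. The replicate block changed no call among the members, lists or named genes and gave 2143 genes higher and 7016 lower. Settings centred on the median gene (median-of-ratios scaling, limma-voom with the same factors, and the log2 values of the authors' deposited table, in that order) gave 4305, 4359 and 4152 genes higher and 4002, 4026 and 3865 lower, against 2111 and 6944; the share of calls that were higher depends on them. In the signalling list they gave 10, 10 and 10 higher and 3, 3 and 3 lower, and leaving out single samples gave 3 to 6 lower (3 without M1 replicate 2). In the processing list the last 2 gave 10 and 10 higher. Under the same settings the sign turned for Tab2 (0.31, 0.32 and 0.31) and, among genes near Il18, Pts (0.26, 0.27 and 0.24), Timm8b (0.0074, 0.012 and 0.0064) and Pih1d2 (0.11, 0.18 and 0.097); the cause was not tested. Median-of-ratios scaling also turned the sign of Traf6, Tollip, Map3k7, Ube2n, Ube2v1, Naip5, Naip6 and Cd68. The log2 difference of the ratio of Il1r2 to Il1r1 ran from -1.89 to -0.99 when single samples were left out, -0.99 without M1 replicate 2 and -0.999 without M0 replicate 1. Each ratio rests on 2 to 5 reads of Il1r1. Depth limits Il1r1, Il18r1 and the M0 levels of Il1a and Il1b, which rest on 14 reads or fewer per group.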

Other observations

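Genes close to the members on the chromosome were called in both directions, in shares near those of all genes. Of 16 annotated genes within 100 kb of a member at 1 TPM or more in either group, predicted genes and small RNAs left out, 15 were tested. On deposited TPM 3 were higher, 8 lower and 4 not called, beside 18.7% and 61.5% of all genes. After rescaling 6 were higher and 6 lower, beside 38.1% and 35.4%. On deposited TPM they had log2 changes between -0.81 and 0.47 and a median of -0.35, beside -0.31 for all genes tested. Ckap2l, a spindle protein whose gene lies 2.4 kb downstream of Il1a, rose from 34.5 ± 0.137 to 39.5 ± 1.78 TPM. Psd4, 33.8 kb downstream of Il1rn, rose from 52.5 ± 3.07 to 72.9 ± 2.34 TPM. Numa1, a mitotic spindle gene 0.115 kb from Il18bp, fell from 41.3 ± 2.60 to 25.4 ± 2.44 TPM. Rnf121, 0.905 kb on the other side of Il18bp, had 20.1 ± 0.569 and 20.9 ± 0.887 TPM. It was not called on deposited TPM and was called higher after rescaling (log2 change 0.40, limma adjusted p = 0.00012). Map4k4, a kinase gene 58.4 kb upstream of Il1r2, fell from 55.2 ± 3.0 to 32.5 ± 2.87 TPM. Bco2, 1.04 kb upstream of Il18, rose from 0.987 ± 0.109 to 1.65 ± 0.0926 TPM.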
